A study of Homo sapiens with 24 samples.

Results

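The 34 genes described here carry glucose from the medium to lactate or to the entry of the mitochondrial pyruvate pathway. They comprise glucose and lactate carriers, the enzymes of glycolysis with their main isoenzymes, the PFKFB enzymes that set the level of fructose 2,6-bisphosphate, lactate dehydrogenase, the mitochondrial pyruvate carrier, and pyruvate dehydrogenase with its kinases and a phosphatase. The list was written by name, with earlier results of these data known, and its members were taken from the count table by Ensembl identifier. Counts set beside shares of all genes below thus describe the list and are not a test of it. All 34 were found among the 60668 rows of the table, and all 34 passed the filter on low counts that left 22158 genes for testing. In the GENCODE annotation of GRCh38, LDHA (ENSG00000134333.14, chr11:18394388-18408425) and PFKP (ENSG00000067057.17, chr10:3066333-3137712), for example, are protein-coding genes on the plus strand, and PDK4 (ENSG00000004799.8, chr7:95583499-95596491) and SLC2A1 (ENSG00000117394.23, chr1:42925375-42959176) on the minus strand.

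The cells were MCF-10A, an immortalised human mammary epithelial line, grown in 3D on growth factor-reduced Matrigel. The parental line was compared with MCF-10A MYC-ER, which carries MYC fused to an oestrogen receptor domain, so that 4-hydroxytamoxifen (4-OHT) switches the fusion protein on. Each line had 4 groups of 3 libraries: no 4-OHT (0 h), or 1 µM 4-OHT for the last 8, 24 or 48 h before collection. Treatment began on day 3 at the earliest, and every group was collected on day 5. The parental line lacks the fusion protein and received the same 4-OHT. The labels do not give the promoter that drives the fusion, whether the line is 1 clone, whether the 0 h wells received a vehicle, or whether replicates came from separate passages. The p-values below measure the spread between these libraries, which may be partly technical.

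Glycolysis splits glucose into pyruvate and nets a little ATP, with NAD+ consumed at the GAPDH step. Lactate dehydrogenase regenerates NAD+ by turning pyruvate into lactate, which leaves the cell through monocarboxylate carriers. Pyruvate enters mitochondria through the MPC1 and MPC2 carrier, where pyruvate dehydrogenase makes acetyl-CoA unless one of the PDK kinases phosphorylates and inactivates it. Several steps have isoenzymes with different kinetics or tissue patterns. MYC and the hypoxia-inducible factors (HIF) are textbook activators of several of these genes, and both bind short DNA motifs that overlap in sequence.

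Library totals ran from 136860029 to 182438505 counts, and levels below are CPM, counts scaled to the library total with TMM factors. Differences between groups are log2 changes with their standard error (SE) from edgeR's quasi-likelihood test, called where the Benjamini-Hochberg adjusted p over all 22158 genes was under 0.05. The 3 parental 0 h libraries stood apart from each other, with a lowest chi-square per degree of freedom to another replicate of 160.5 to 236.7, against at most 46.9 in every other group. Mitochondrial transcripts took 3.86% of counts in parental 0 h replicate 1 against 7.28% and 7.03% in the other replicates, and 9.24% to 9.71% in MYC-ER at 0 h against 5.61% to 6.78% in the treated MYC-ER libraries. Summed over 8 epithelial markers, keratins included, none of them at 0 throughout, levels in MYC-ER were 13900 to 14400 CPM at 0 h, 13200 to 14500 after 8 h, 9750 to 10200 after 24 h and 8860 to 9460 after 48 h, and 16500 to 26500 CPM in parental libraries. Taken singly, most of the 8 went the other way in MYC-ER. After 8 h 5 were called higher and 2 lower, after 24 h also 5 and 2, and after 48 h 5 and 1. Over all genes the shares were 32.2% higher and 35.4% lower, 30.4% and 31.2%, and 23.4% and 20.7%. EPCAM, an epithelial adhesion molecule, averaged 1.93, 23.8, 75.8 and 38.9 CPM in MYC-ER from 0 to 48 h and 6.25 to 6.74 CPM in parental groups. The markers CD3E (T cells), CDH5 (endothelium), ADIPOQ and LEP (fat cells) were at 0 in all 24 libraries, but the other markers of their lists were not. The sums for immune and endothelial markers were low. For 5 immune markers they were 3.62 to 3.94 CPM in MYC-ER at 0 h, 2.92 to 3.04 after 8 h, 5.04 to 5.64 after 24 h and 3.86 to 4.08 after 48 h. In parental libraries they were 6.14 to 9.08 CPM at 0 h and 3.39 to 5.89 after 4-OHT. For 4 endothelial markers the sums were 0.0928 to 0.249 CPM in MYC-ER at 0 h, 2.15 to 2.73 after 8 h, 0.308 to 0.623 after 24 h and 0.427 to 0.495 after 48 h, and 1.04 to 2.99 CPM in parental libraries. The sum of 4 adipocyte markers was 1.58 to 1.94 CPM in MYC-ER at 0 h, 0.795 to 1.44 after 8 h, 0.801 to 0.99 after 24 h and 1.62 to 1.79 after 48 h, and 0.118 to 0.57 CPM in parental libraries. The sum of 5 fibroblast markers, nearly all of it DCN, was 157 to 159 CPM in MYC-ER at 0 h, 47.9 to 52.7 after 8 h, 23.8 to 24.7 after 24 h and 48.0 to 51.8 after 48 h, against 29.5 to 47.1 in parental libraries. Of the 4 fibroblast markers tested, 1 was called lower and 0 higher after 8 h. After 24 h and after 48 h, 2 were called higher and 1 lower. In MYC-ER the fibroblast and endothelial sums, EPCAM and the mitochondrial share thus differed from 0 h after 8, 24 and 48 h. The epithelial sum overlapped with 0 h after 8 h and was lower after 24 and 48 h. The immune and adipocyte sums differed from 0 h after 8 and 24 h and overlapped with it after 48 h. The part of these shifts in the results below was not tested. In bulk RNA of this kind, fewer cells of a type and less RNA per cell cannot be told apart.

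Promoter sequences were available in the RefSeq table (GRCh38.p14, 250 bases before to 50 after the annotated start) for 30 of the 34 members. PFKFB2, SLC2A3, SLC16A1 and PDP1 had no entry. The E-box CACGTG, the core sequence that MYC with its partner MAX recognises, was found in 4 of the 30 member promoters (13.3%) and in 7.43% of all 27305 promoters of the same length. The HIF core ACGTG, counted on both strands and contained in every CACGTG, was found in 10 of 30 (33.3%) against 21.6% of all promoters. GCGTG, the other HIF core, was found in 16 of 30 (53.3%) against 36.3%. These shares describe the letters in the window, not binding. The 4 promoters with an E-box are shown because they belong to genes of different steps, LDHA, GAPDH, ALDOC and PDHB, and the promoter of LDHB is shown beside them as that of the other lactate dehydrogenase subunit. Capitals mark every match to these 3 motifs on either strand, and the sequences run 5′ to 3′ on the gene's strand. They lie at chr11:18394313-18394612 (LDHA, plus strand), chr12:21657793-21658092 (LDHB, minus strand), chr12:6535014-6535313 (GAPDH, plus strand), chr17:28576846-28577145 (ALDOC, minus strand) and chr3:58433783-58434082 (PDHB, minus strand).
LDHA: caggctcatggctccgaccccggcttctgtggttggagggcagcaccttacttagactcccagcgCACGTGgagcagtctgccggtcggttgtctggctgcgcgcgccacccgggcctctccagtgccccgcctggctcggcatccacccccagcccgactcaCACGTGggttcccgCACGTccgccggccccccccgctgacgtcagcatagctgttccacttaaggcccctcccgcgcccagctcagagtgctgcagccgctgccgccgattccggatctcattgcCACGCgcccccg
LDHB: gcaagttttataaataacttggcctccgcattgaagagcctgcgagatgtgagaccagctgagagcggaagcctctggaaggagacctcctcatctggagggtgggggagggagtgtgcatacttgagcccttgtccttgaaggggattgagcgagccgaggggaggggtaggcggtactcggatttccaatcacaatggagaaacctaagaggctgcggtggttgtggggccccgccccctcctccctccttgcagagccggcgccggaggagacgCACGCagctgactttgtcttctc
GAPDH: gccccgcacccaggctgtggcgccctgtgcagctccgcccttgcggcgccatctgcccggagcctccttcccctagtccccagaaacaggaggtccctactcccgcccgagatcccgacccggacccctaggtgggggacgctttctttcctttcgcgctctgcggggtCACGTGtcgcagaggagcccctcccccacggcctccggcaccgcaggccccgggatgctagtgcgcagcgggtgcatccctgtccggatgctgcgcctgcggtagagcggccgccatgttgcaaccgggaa
ALDOC: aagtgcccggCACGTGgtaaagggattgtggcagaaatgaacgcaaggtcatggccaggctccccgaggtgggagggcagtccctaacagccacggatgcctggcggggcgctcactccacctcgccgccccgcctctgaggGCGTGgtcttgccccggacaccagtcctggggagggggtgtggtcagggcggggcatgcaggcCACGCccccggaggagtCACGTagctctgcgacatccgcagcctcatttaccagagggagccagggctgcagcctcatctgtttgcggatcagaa
PDHB: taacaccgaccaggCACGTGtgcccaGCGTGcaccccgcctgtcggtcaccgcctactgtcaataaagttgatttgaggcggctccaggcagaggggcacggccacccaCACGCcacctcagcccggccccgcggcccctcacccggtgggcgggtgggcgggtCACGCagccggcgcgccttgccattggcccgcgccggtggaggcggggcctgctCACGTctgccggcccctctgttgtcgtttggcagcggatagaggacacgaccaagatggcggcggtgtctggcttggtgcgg
LDHA held 2 E-boxes, whose first bases lie 185 and 87 bases before the start. In GAPDH the E-box began 81 bases before the start used, in ALDOC 240 and in PDHB 236. The windows of GAPDH, LDHB and ALDOC lie wholly inside the GENCODE spans of these genes. Those spans are chr12:6533927-6538374, chr12:21635342-21757857 and chr17:28573115-28577264. The outermost GENCODE start thus lies upstream of each of these windows. For LDHA, the GENCODE span chr11:18394388-18408425 begins inside the window. The E-box 87 bases before the start used lies inside that span, and the other lies just upstream of it. LDHB held no CACGTG in this window.

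After 8 h of 4-OHT most of the pathway was higher in MYC-ER cells, and by 48 h most of that rise was gone. The 34 genes together took 1.04% ± 0.021 (SD, n = 3) of all counts in MYC-ER at 0 h, 1.98% ± 0.072 after 8 h, 2.42% ± 0.033 after 24 h and 1.41% ± 0.024 after 48 h. In parental cells the share was 1.99% ± 0.185 at 0 h, 1.82% ± 0.046 after 8 h, 1.89% ± 0.076 after 24 h and 1.84% ± 0.116 after 48 h. The MYC-ER group without 4-OHT thus held the smallest share of the 8 groups.

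**Figure D1:**
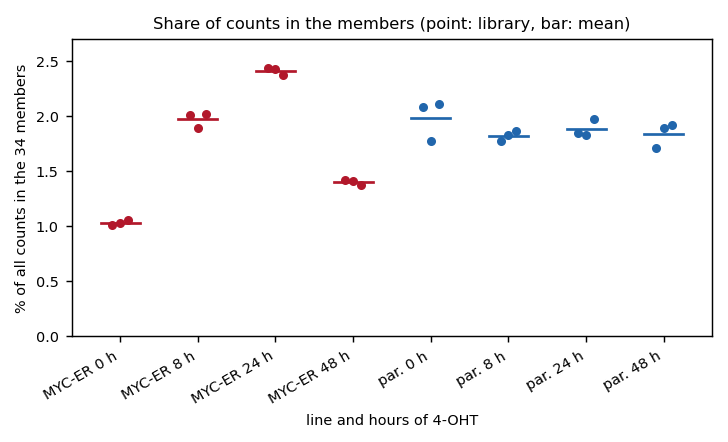
Share of all counts (percent, vertical axis) that fell on the 34 members in each library (points) with the group mean (bars), by line and hours of 4-OHT. The MYC-ER means are 1.04%, 1.98%, 2.42% and 1.41% at 0, 8, 24 and 48 h, and the parental means lie between 1.82% and 1.99%.

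At 8 h in MYC-ER, 23 members were called higher and 8 lower, against 32.2% and 35.4% of all genes tested. The median log2 change of the members was 0.72, and that of all genes -0.10. At 24 h, 23 were higher and 9 lower (background 30.4% and 31.2%), with a median of 0.94 against -0.015. At 48 h, 15 were higher and 10 lower (background 23.4% and 20.7%), and the medians were 0.046 and 0.029. The 3 comparisons share the 0 h libraries. Of the calls, 28 of 31 after 8 h, 29 of 32 after 24 h and 19 of 25 after 48 h held under every alternative fit and with each library left out. When only library size was used for scaling, the split of the members after 48 h was 18 higher and 6 lower, and that of all calls 73.8% higher against 53.0%.

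**Figure D2:**
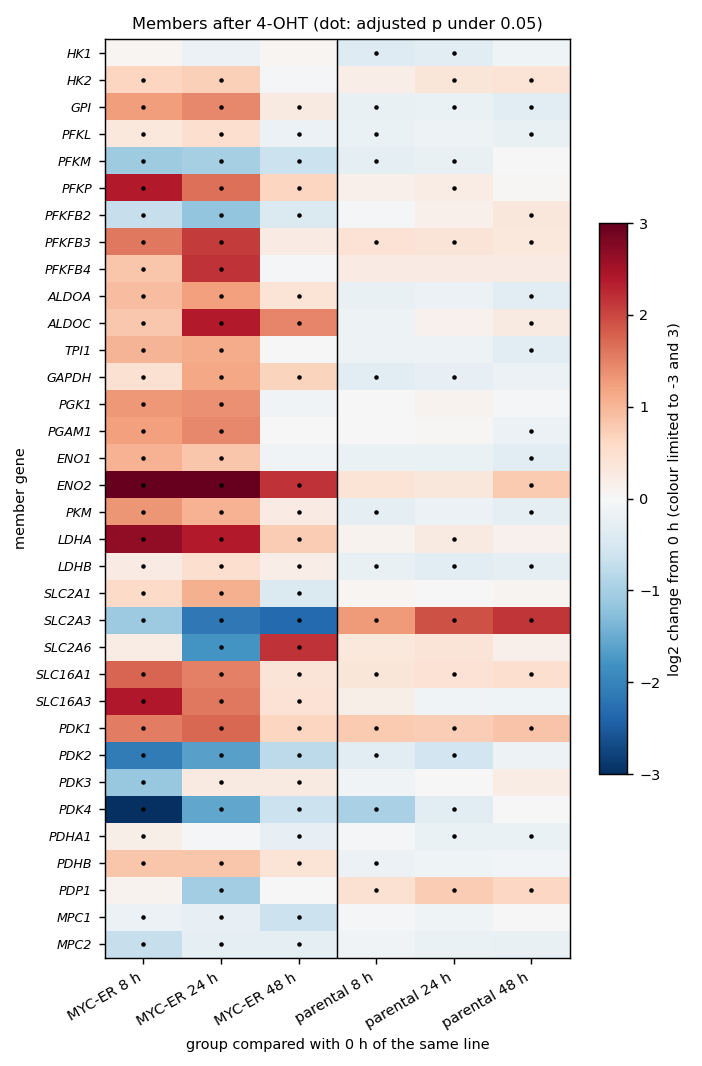
Log2 change from 0 h of the same line for each of the 34 members (rows) in 6 comparisons (columns). Red is higher, blue lower, colour is limited to -3 and 3, and a dot marks an adjusted p under 0.05. The MYC-ER columns at 8 and 24 h carry 23 higher calls each, and the 48 h column 15.

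Among the glucose carriers, SLC2A1 (GLUT1), the main carrier of basal glucose uptake in epithelial cells, followed the general course. It measured 206, 215 and 216 CPM in the 3 MYC-ER libraries at 0 h, 312, 268 and 373 after 8 h, 466, 441 and 424 after 24 h and 162, 159.7 and 152 after 48 h. The libraries at 8 and 24 h all lay above those at 0 h, and those after 48 h all lay below them. The log2 changes were 0.58 (SE 0.12, adjusted p = 0.000151), 1.06 (SE 0.12, adjusted p = 6.11e-08) and -0.43 (SE 0.12, adjusted p = 0.0048).

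The other 2 glucose carriers were scarce. SLC2A3 (GLUT3), a high-affinity carrier best known from neurons, measured 3.72, 3.99 and 4.34 CPM at 0 h, 1.6, 1.66 and 2.42 after 8 h, 0.914, 1.12 and 0.699 after 24 h and 0.715, 0.747 and 0.918 after 48 h in MYC-ER. The 0 h libraries lay above all treated ones, and SLC2A3 had the largest called fall at 24 and 48 h, with log2 changes of -2.14 (SE 0.28, adjusted p = 8.51e-07) and -2.34 (SE 0.28, adjusted p = 6.1e-07). Its reads cannot be told apart with certainty from those of SLC2A14, a near-identical neighbour that stood at 41.7 ± 1.95 CPM in MYC-ER at 0 h and 0.425 CPM after 24 h. Rows of its pseudogenes held 1.07% to 37.8% of the counts of the gene and those rows together, so its values are uncertain. SLC2A6 (GLUT6), a carrier found on lysosomes, measured 0.4, 0.357 and 0.566 CPM at 0 h, 0.702, 0.454 and 0.394 after 8 h, 0.0989, 0.114 and 0.167 after 24 h and 1.38, 2.24 and 2.38 after 48 h. It fell by 1.80 after 24 h (SE 0.27, adjusted p = 3.91e-06) and after 48 h showed the largest rise of all members, 2.18 (SE 0.24, adjusted p = 1.22e-07).

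Hexokinases trap glucose by phosphorylating it. HK1, the widely expressed form, measured 386 ± 12.6 CPM in MYC-ER at 0 h (SD, n = 3, here and below), 400.1 ± 14.8 after 8 h, 343 ± 10.8 after 24 h and 406 ± 9.43 after 48 h, and none of its 3 changes passed the test (adjusted p from 0.0583 to 0.572). HK2, the inducible form, rose from 147 ± 1.64 to 229 ± 21.5 CPM after 8 h (log2 change 0.64, SE 0.10, adjusted p = 1.32e-05) and stood at 242 ± 18.4 CPM after 24 h (0.72, SE 0.10, adjusted p = 3.24e-06). At 48 h it measured 143 ± 1.41 CPM. GPI, which turns glucose 6-phosphate into fructose 6-phosphate, rose 2.4-fold after 8 h and 2.7-fold after 24 h, from 326 ± 9.68 to 782 ± 32.7 and 881 ± 31.2 CPM (adjusted p = 2.98e-13 after 8 h). At 48 h it was still higher than at 0 h, at 389.9 ± 8.91 CPM (log2 change 0.26, SE 0.067, adjusted p = 0.00314).

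Phosphofructokinase, the committed step, has 3 subunit genes, and they moved in different directions. PFKP, the platelet form, measured 97.9, 95.6 and 95.4 CPM at 0 h, 507, 479 and 523 after 8 h, 317, 304 and 284 after 24 h and 148, 151 and 153 after 48 h in MYC-ER. Every treated library was above every 0 h library, and the log2 changes were 2.38 (SE 0.086, adjusted p = 3.72e-16), 1.65 (SE 0.084, adjusted p = 1.63e-13) and 0.65 (SE 0.082, adjusted p = 1.2e-06). PFKM, the muscle form, measured 223, 234 and 234 CPM at 0 h, 110.5, 110.1 and 112 after 8 h, 116, 114 and 116 after 24 h and 147, 146 and 146 after 48 h. All treated libraries were below all 0 h libraries, with log2 changes of -1.06 after 8 h (SE 0.037, adjusted p = 2.2e-16) and -0.65 after 48 h (SE 0.037, adjusted p = 2.95e-12). PFKL, the liver form, changed less, by 0.33 after 8 h and 0.51 after 24 h (adjusted p = 1.93e-06). Its log2 change of -0.18 after 48 h had an adjusted p of 0.0495 and lost its call whichever library was left out, with adjusted p from 0.0865 to 0.113.

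The PFKFB enzymes make and remove fructose 2,6-bisphosphate, the strongest activator of phosphofructokinase. PFKFB3, the form with the highest kinase to phosphatase ratio, measured 35.8, 36.6 and 34.9 CPM at 0 h, 97.9, 98.1 and 123 after 8 h, 162, 156 and 144 after 24 h and 43, 43.2 and 41.7 after 48 h. The 8 and 24 h libraries stood clear of those at 0 h, with log2 changes of 1.57 (SE 0.12, adjusted p = 8.62e-11) and 2.11 (SE 0.12, adjusted p = 9.82e-13). PFKFB4 measured 19.9, 20.2 and 19.1 CPM at 0 h, 30.6, 29.6 and 45.3 after 8 h, 89, 90 and 86.2 after 24 h and 18.5, 19.8 and 18.2 after 48 h. It was thus high mainly after 24 h, where its log2 rise was 2.16 (SE 0.13, adjusted p = 3.39e-12) against 0.83 after 8 h (SE 0.13, adjusted p = 5.93e-06). PFKFB2, the heart form, fell instead, from 74 ± 3.31 to 46.2 ± 2.09 CPM after 8 h and 32.4 ± 0.456 CPM after 24 h (log2 change -1.19, SE 0.12, adjusted p = 1.55e-08), and stood at 55.2 ± 0.596 CPM after 48 h.

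From aldolase to pyruvate kinase, all 9 members were called higher after 8 h and all 9 after 24 h, against 32.2% and 30.4% of all genes. At 48 h 5 of the 9, ALDOA, ALDOC, GAPDH, ENO2 and PKM, were called higher and none lower (background 23.4% and 20.7%). The 48 h call of PKM was lost with MYC-ER 0 h replicate 1 (adjusted p = 0.0568) or MYC-ER 48 h replicate 1 (adjusted p = 0.0589) left out. Among the abundant enzymes, ALDOA, which splits fructose 1,6-bisphosphate, went from 864 ± 37.9 to 1636 ± 98.3 and 2025 ± 75.6 CPM and back to 1140 ± 20.2 CPM. TPI1, which interconverts the 2 triose phosphates, went from 459 ± 13.2 to 923 ± 54, 992 ± 21.4 and 455 ± 11.2 CPM. GAPDH, which reduces NAD+ to NADH, kept more of its rise, with 2527 ± 153, 3465 ± 192, 5632 ± 113 and 3984 ± 114 CPM at the 4 times. Its log2 change was 0.46 after 8 h, 1.16 after 24 h and 0.66 after 48 h (SE 0.10, adjusted p = 1.17e-05).

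PGK1 and PGAM1, the phosphoglycerate kinase and mutase, had nearly the same course. PGK1 rose by 1.29 and 1.38 on the log2 scale and PGAM1 by 1.24 and 1.44. At 48 h neither passed the test, at -0.11 (SE 0.061, adjusted p = 0.177) and 0.023 (SE 0.057, adjusted p = 0.79). Rows of PGAM1 pseudogenes held at most 2.16% of the counts of the gene and those rows together. ENO1, the main enolase, went from 1581 ± 48.1 to 3270 ± 145 CPM after 8 h, and PKM, pyruvate kinase, from 1042 ± 23.3 to 2595 ± 120 CPM. Gene counts do not separate the 2 splice forms of PKM. Both were lower after 24 h than after 8 h, with 2797 ± 63.6 and 2147 ± 68.9 CPM.

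At 8 and 24 h the largest rise in fold terms belonged to a scarce isoenzyme. ENO2, the neuronal enolase, measured 0.516, 0.476 and 0.49 CPM in MYC-ER at 0 h, 5.08, 4.84 and 6.43 after 8 h, 7.07, 8.57 and 7.32 after 24 h and 2.13, 2.08 and 2.44 after 48 h. All treated libraries stood above all 0 h libraries, with log2 changes of 3.46 (SE 0.18, adjusted p = 1.2e-13), 3.95 (SE 0.18, adjusted p = 2.06e-14) and 2.16 (SE 0.17, adjusted p = 7.68e-10). Per kb of transcript it was still 0.227% of the enolase level after 24 h. ALDOC, the brain aldolase, measured 18.3, 18.7 and 18.8 CPM at 0 h, 32.2, 30.3 and 35 after 8 h, 98.5, 98.6 and 91.2 after 24 h and 54.2, 52.3 and 47.7 after 48 h. Its peak was after 24 h (log2 change 2.37, SE 0.11, adjusted p = 2.91e-14), and it was still over 2-fold higher after 48 h (2.77-fold, adjusted p = 2.22e-10).

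Apart from ENO2, LDHA had the largest rise of all members at 8 and 24 h. LDHA, whose subunit favours lactate formation, measured 478, 522 and 513 CPM in MYC-ER at 0 h, 3252, 3016 and 3253 after 8 h, 2775, 2595 and 2552 after 24 h and 881, 852 and 827 after 48 h. Every treated library was above every 0 h library, and LDHA was 6.29-fold higher after 8 h (log2 change 2.65, SE 0.076, adjusted p = 9.07e-18), 5.24-fold after 24 h (adjusted p = 4.38e-17) and 1.69-fold after 48 h (adjusted p = 1.73e-08). LDHB, whose subunit favours pyruvate, measured 505, 535 and 530.1 CPM at 0 h, 636, 607 and 631 after 8 h, 749, 726 and 751 after 24 h and 613, 606 and 594 after 48 h. Its log2 changes were small, 0.26, 0.50 and 0.21, and the first lost its call under upper quartile scaling (0.12, adjusted p = 0.112).

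Both lactate carriers rose. SLC16A3 (MCT4), the low-affinity carrier that exports lactate, measured 124, 113 and 118 CPM at 0 h, 635, 579.6 and 651 after 8 h, 373, 348 and 338 after 24 h and 163, 159.9 and 156 after 48 h. SLC16A1 (MCT1), the widely expressed carrier, measured 129, 139 and 131 CPM at 0 h, 442, 443 and 443 after 8 h, 395, 370.5 and 366 after 24 h and 176, 174 and 170.1 after 48 h. In both genes the 4 times did not overlap. The log2 change after 8 h was 2.39 (SE 0.10, adjusted p = 3.52e-15) for SLC16A3 and 1.74 (SE 0.072, adjusted p = 4.14e-15) for SLC16A1, and after 48 h it was 0.43 and 0.38.

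**Figure D3:**
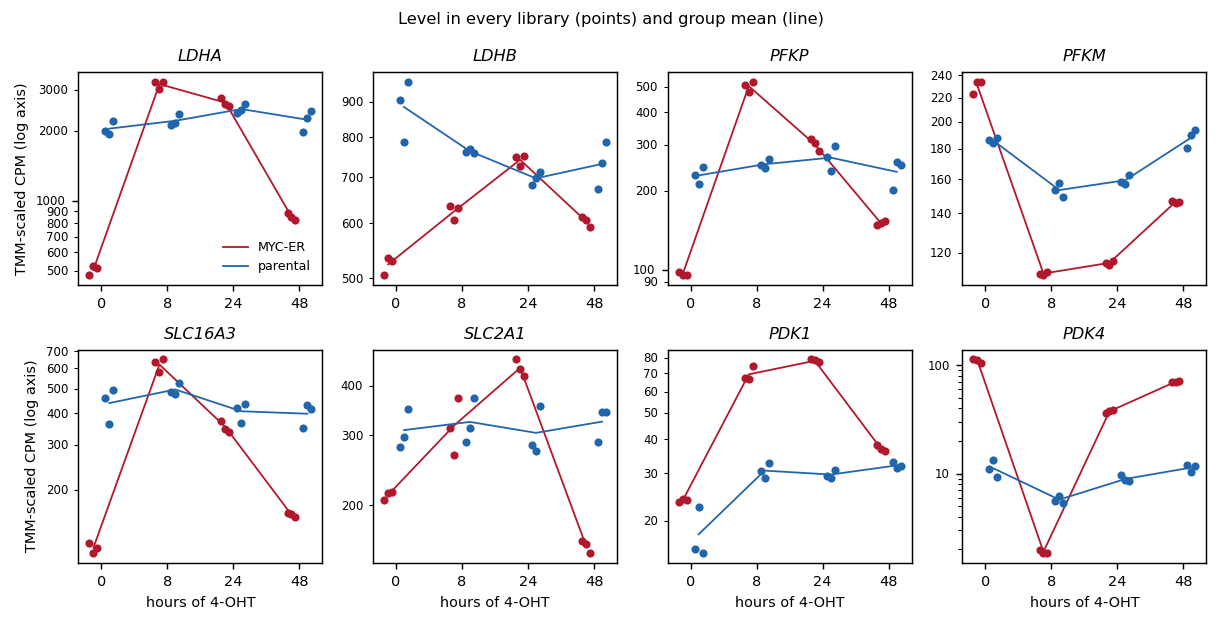
Level (TMM-scaled CPM, log axis) of 8 members in every library (points) with the group mean (lines), by hours of 4-OHT in MYC-ER (red) and parental (blue) cells. In MYC-ER, LDHA, PFKP and SLC16A3 peak after 8 h, SLC2A1 and PDK1 after 24 h, and PDK4 drops to its lowest level, 1.86 to 1.99 CPM, after 8 h.

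The 4 pyruvate dehydrogenase kinases, which switch the complex off, did not move together. PDK1 measured 23.5, 24.1 and 23.8 CPM in MYC-ER at 0 h, 67.2, 66.8 and 74.2 after 8 h, 78.8, 78.1 and 76.8 after 24 h and 38.1, 36.8 and 36 after 48 h. It was above its 0 h values at every time, with log2 changes of 1.54 (SE 0.10, adjusted p = 3.7e-12), 1.71 (SE 0.10, adjusted p = 8.73e-13) and 0.64 (SE 0.095, adjusted p = 9.19e-06). PDK4, the form best known for its induction by fasting, measured 113, 113 and 105 CPM at 0 h, 1.99, 1.86 and 1.86 after 8 h, 36, 37.9 and 38.7 after 24 h and 70.1, 69.4 and 71.8 after 48 h. Its log2 change after 8 h, -5.86 (SE 0.11, adjusted p = 2.32e-20), was the largest fall of all members. Its level then climbed back, and the changes from 0 h were -1.56 (SE 0.091, adjusted p = 1.63e-12) after 24 h and -0.65 (SE 0.089, adjusted p = 3.21e-06) after 48 h.

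PDK2, the widely expressed kinase, measured 25.6, 28.3 and 28.1 CPM at 0 h, 6.56, 6.76 and 5.94 after 8 h, 8.56, 9.14 and 8.68 after 24 h and 17.3, 16 and 14.6 after 48 h, and changed by -2.09, -1.64 and -0.78 on the log2 scale (adjusted p = 1.4e-15 after 8 h). PDK3 fell after 8 h alone, from 19.6 ± 0.705 to 8.92 ± 0.869 CPM (log2 change -1.14, SE 0.10, adjusted p = 6.52e-10), and was slightly above 0 h at 24 and 48 h (0.27 and 0.26). Those small rises lost their calls with MYC-ER 0 h replicate 1 left out (adjusted p = 0.0599 and 0.0934), and also with MYC-ER 24 h replicate 1, MYC-ER 0 h replicate 3, or MYC-ER 48 h replicate 2 or 3 left out (adjusted p from 0.0746 to 0.0905).

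PDHB, the E1 beta subunit, rose from 56 ± 1.64 to 100.2 ± 2.2 CPM after 8 h and 100.2 ± 1.39 after 24 h (log2 change 0.84 at both, SE 0.055, adjusted p = 8.24e-12 after 8 h), and remained higher after 48 h (0.40). PDHA1, the E1 alpha subunit encoded on the X chromosome, changed by 0.18 after 8 h (adjusted p = 0.00186, but 0.45 under upper quartile scaling), -0.032 after 24 h and -0.24 after 48 h (adjusted p = 0.000196). PDP1, the phosphatase that switches the complex back on, fell after 24 h alone, from 13.4 ± 0.56 to 6.52 ± 0.0937 CPM (-1.04, SE 0.12, adjusted p = 1.05e-07). Both genes of the mitochondrial pyruvate carrier were called lower at all 3 times, against 35.4%, 31.2% and 20.7% of all genes. MPC1 changed by -0.17, -0.25 and -0.65 (adjusted p = 3.94e-08 after 48 h), and MPC2 changed by -0.70, -0.28 and -0.28 (adjusted p = 3.7e-07 after 8 h). The 8 h fall of MPC1 lost its call with MYC-ER 0 h replicate 1 or 2 or MYC-ER 8 h replicate 1 or 3 left out, with adjusted p from 0.0533 to 0.0751. With library size alone the 24 h falls of MPC1 and MPC2 (adjusted p = 0.0983 and 0.0913) and the 48 h falls of MPC2 and PDHA1 (adjusted p = 0.267 and 0.074) were not called.

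Between 8 and 24 h in MYC-ER, 15 members were called higher and 12 lower (background 28.4% and 27.1%). Of these 27 calls, 16 held under every alternative fit and with each library left out. The largest rise was PDK4, by 4.30 (SE 0.11, adjusted p = 1.53e-18), followed by ALDOC, PDK3 and PFKFB4 at 1.56, 1.40 and 1.33. The largest fall was that of SLC2A6, -2.03 (SE 0.27, adjusted p = 1.09e-06), and SLC16A3 and PFKP changed by -0.82 and -0.74. This split depended on scaling. With library size alone it was 21 higher and 5 lower, the share of higher calls over all genes went from 51.2% to 67.8%, and the small falls of LDHA, PKM and ENO1 were no longer called. The fall of ENO1 also lost its call with MYC-ER 8 h replicate 1 or 3, or MYC-ER 24 h replicate 2 or 3, left out (adjusted p from 0.0603 to 0.0891). Between 24 and 48 h, 24 members were called lower and 7 higher (background 25.5% and 28.2%), with a median of -0.77 against 0.065 over all genes. PFKFB4 fell most, at -2.23 (SE 0.13, adjusted p = 4.63e-12), and PFKFB3, ENO2 and LDHA had -1.85, -1.79 and -1.63. SLC2A6 rose most, by 3.98 (SE 0.27, adjusted p = 3.56e-11), and HK1, PFKM, PFKFB2, PDK2, PDK4 and PDP1 also rose. All 31 calls of this comparison held under every alternative and with each library left out.

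In parental cells the log2 change was smaller in size than in MYC-ER for 30 of the 34 members after 8 h, 32 after 24 h and 20 after 48 h. That count was not made over all genes. Of all genes, 67.6%, 61.6% and 44.1% were called in MYC-ER at these times, and 31%, 42.9% and 40.5% in parental cells. In parental cells at 8 h 5 members were called higher and 10 lower (background 15% and 16%), after 24 h 8 and 8 (21.2% and 21.7%), and after 48 h 9 and 9 (20.4% and 20.1%). Only SLC2A3, whose values are uncertain, was called with a change of 2-fold or more. The share of all genes past that size was not counted. With the GC and length trends removed, 39.9% of all calls after 48 h were higher against 50.3% without that correction. The medians were -0.065, -0.065 and 0.0073. Fitted on their own groups alone, 6, 6 and 5 members were called. With parental 0 h replicate 2 left out the counts were 20, 23 and 22, and with replicate 3 left out 10, 16 and 12. With replicate 1 left out they were 11, 15 and 14. Calls that held under every alternative numbered 6 after 8 h, 5 after 24 h and 5 after 48 h.

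SLC2A3 had the largest parental rise at each time. It measured 0.245, 0.131 and 0.226 CPM at 0 h, 0.397, 0.462 and 0.599 after 8 h, 0.639, 0.628 and 0.992 after 24 h and 0.51, 1.2 and 0.948 after 48 h, and rose by 1.27 (SE 0.30, adjusted p = 0.0033), 1.91 (SE 0.30, adjusted p = 4.52e-05) and 2.14 (SE 0.30, adjusted p = 2.33e-05). Treated libraries lay above the 0 h libraries, at levels still near 1 CPM or below. PDK1 rose by 0.78, 0.73 and 0.84 (adjusted p = 3.33e-06 after 48 h). Its libraries held 15.7, 22.5 and 15.2 CPM at 0 h and 30.4, 28.8 and 32.6 CPM after 8 h, and after 24 h the rise was 0.73, but 0.081 with the GC and length trends removed. SLC16A1 rose by 0.37, 0.44 and 0.51, and PDP1 by 0.46, 0.76 and 0.63.

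PDK4 fell most after 8 h in parental cells. It measured 10.9, 13.4 and 9.28 CPM at 0 h, 5.64, 6.24 and 5.39 after 8 h, 9.64, 8.66 and 8.5 after 24 h and 12.1, 10.4 and 11.7 after 48 h, a change of -0.96 after 8 h (SE 0.094, adjusted p = 4.5e-07). The 8 h libraries were the low ones, and the 0 h libraries overlapped with those of the 24 h and 48 h groups. PDK2 had the largest fall after 24 h, from 11.5, 11.2 and 13.5 to 8.14, 7.71 and 8.24 CPM (log2 change -0.59, SE 0.079, adjusted p = 9.38e-06). ALDOA had the largest after 48 h, from 1771, 1380 and 1970 to 1157, 1438 and 1463 CPM, with overlap between the groups. Its change of -0.34 (SE 0.10, adjusted p = 0.0119) was 0.028 with the GC and length trends removed, and lost its call with parental 0 h replicate 3 (adjusted p = 0.162) or parental 48 h replicate 1 (adjusted p = 0.0872) left out.

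Before any 4-OHT the lines already differed. At 0 h MYC-ER cells had 24 members lower and 8 higher than parental cells (background 32.7% and 31.6%), with a median of -0.47 against 0 over all genes. Of these 32 calls, 25 held under every alternative fit and with each library left out. The parental side is the 0 h libraries that stood apart from each other. The log2 difference for LDHA was -2.02 (SE 0.075, adjusted p = 6.93e-16), with 478, 522 and 513 CPM in MYC-ER and 1990, 1930 and 2204 CPM in parental libraries. For SLC16A3 it was -1.89, for PKM -1.74 and for PFKP -1.25. The lowest value was that of SLC2A6, -2.12 (SE 0.24, adjusted p = 6.8e-08), at 0.4, 0.357 and 0.566 against 2.06, 1.56 and 2.15 CPM. The higher members were PFKM, PFKFB2, SLC2A3, PDP1 and all 4 PDK genes, led by SLC2A3 at 4.32 (SE 0.32, adjusted p = 9.27e-11) and PDK4 at 3.30 (SE 0.10, adjusted p = 1.56e-17). PDK4 stood at 113, 113 and 105 CPM in MYC-ER and 10.9, 13.4 and 9.28 CPM in parental libraries. PDK1, higher by 0.42, turned to -0.21 (adjusted p = 0.0165) with the GC and length trends removed.

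At 48 h of 4-OHT, 22 members were lower in MYC-ER and 5 higher (background 29.4% and 27.3%). Of these 27 calls, 21 held under every alternative fit and with each library left out. LDHA had the lowest value, -1.39 (SE 0.073, adjusted p = 8.29e-13), at 881, 852 and 827 CPM against 1981, 2266 and 2440 CPM. SLC16A3, PKM and SLC2A1 followed at -1.32, -1.20 and -1.04. The 5 higher members were PDK4 at 2.63 (SE 0.10, adjusted p = 1.82e-15), with 70.1, 69.4 and 71.8 CPM against 12.1, 10.4 and 11.7 CPM, and ENO2, ALDOC, PDK3 and PDK2 at 0.97, 0.89, 0.81 and 0.56. With library size alone the split was 17 lower and 7 higher and the share of higher calls over all genes 59.8% against 48.2%, and with upper quartile scaling 16 and 7, and 59.7%.

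The line by time interaction, the change in MYC-ER cells less that in parental ones, called 24 members higher and 7 lower after 8 h (background 27.3% and 27.8%), 23 and 7 after 24 h (27.7% and 26.8%) and 14 and 9 after 48 h (23.6% and 21.4%). Of these calls, 29 of 31, 28 of 30 and 18 of 23 held under every alternative fit and with each library left out. The largest values after 8 h were ENO2 at 3.06 (SE 0.24, adjusted p = 3.75e-10), LDHA at 2.54 (SE 0.10, adjusted p = 1.1e-14), PFKP at 2.24 and SLC16A3 at 2.22, and on the other side PDK4 at -4.90 (SE 0.14, adjusted p = 5.78e-17) and SLC2A3 at -2.36. At 24 h ENO2 led at 3.62 and SLC2A3 was lowest at -4.04 (adjusted p = 3e-08). At 48 h SLC2A6 was highest at 2.02 (SE 0.32, adjusted p = 2.9e-05) and SLC2A3 lowest at -4.48 (SE 0.41, adjusted p = 2e-08). For MYC-ER rises seen in parental cells too, the interaction gave the excess: PDK1 had 0.76 after 8 h (adjusted p = 4.39e-05), 0.98 after 24 h and -0.21 after 48 h (adjusted p = 0.223). The last became 0.48 (adjusted p = 0.000687) with the GC and length trends removed. At 48 h library size alone gave 16 higher and 8 lower, with 63.5% of all calls higher against 52.5%.

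Isoenzyme balance was measured as the log2 ratio of counts within 14 pairs, in every library, which does not depend on scaling between libraries. GC and length trends, which changed several parental values above, were not removed from the ratios. Across the 4 times, all 14 ratios passed an exact permutation F test in MYC-ER and 11 in parental cells (Benjamini-Hochberg over 28 tests, smallest p the 15400 allocations allow 6.49e-05). Neither these counts nor the one between lines below was made over other pairs of genes. They therefore do not show whether isoenzyme pairs moved more than other pairs. The log2 ratio of PFKM to PFKP went from 1.26 ± 0.06 (SD, n = 3) at 0 h to -2.18 ± 0.055 after 8 h, -1.38 ± 0.089 after 24 h and -0.042 ± 0.023 after 48 h in MYC-ER, and lay between -0.74 and -0.30 in parental groups. That of LDHB to LDHA went from 0.054 ± 0.022 to -2.34 ± 0.028, -1.83 ± 0.063 and -0.50 ± 0.024, against -1.83 to -1.21 in parental groups. PDK4 to PDK1 swung furthest, from 2.21 ± 0.063 to -5.19 ± 0.12, -1.05 ± 0.07 and 0.93 ± 0.058. Each of these MYC-ER tests reached the smallest p (adjusted p = 0.000182, exact permutation). In parental cells the ratios PFKFB3 to PFKFB2 (adjusted p = 0.177), PFKFB4 to PFKFB3 (0.655) and SLC2A6 to SLC2A1 (0.124) did not pass the exact permutation test. The parental tests include the 0 h libraries that stood apart from each other. With each parental library left out in turn, 10 to 11 ratios passed.

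Averaged over the 4 times, 6 of the 14 ratios differed between lines (exact permutation within times, adjusted over 14; 5.83e-05 is the smallest value reached, from the smallest p of 1.25e-05 that 160000 allocations allow). MYC-ER cells had more HK2 for their HK1 (difference in log2 ratio 0.49, adjusted p = 0.000831), more ALDOC for ALDOA (0.96, adjusted p = 5.83e-05), more ENO2 for ENO1 (1.93, adjusted p = 5.83e-05) and more SLC2A3 for SLC2A1 (1.89, adjusted p = 0.00179). They had less SLC2A6 for SLC2A1 (-1.95, adjusted p = 0.00327) and less SLC16A3 for SLC16A1 (-0.57, adjusted p = 5.83e-05). The average hides changes of direction with time. For SLC2A6 to SLC2A1 the order was reversed after 48 h (-6.34 in MYC-ER against -7.23), without overlap between the libraries. Group means were also reversed for HK2 to HK1 after 48 h (-1.50 against -1.44). The same held for SLC2A3 to SLC2A1 after 24 h (-8.95 against -8.68). In these last 2 cases the libraries of the lines overlapped, and single times were not tested. For PFKM to PFKP the lines lay apart at 0 h and after 8 h on opposite sides, and the mean difference was -0.066 (adjusted p = 0.774).

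To compare levels between isoenzymes, CPM was divided by the length in kb of the principal GENCODE transcript. On that scale PFKM was the leading phosphofructokinase in MYC-ER at 0 h, with 44.3% ± 0.92 (SD) of the family against 22.5% ± 0.47 for PFKP and 33.2% ± 0.46 for PFKL. At 8 h PFKP took 65.1% ± 0.4 and PFKM 11.8% ± 0.42. At 48 h PFKP stood at 38% ± 0.4, and in the parental groups at 41.2% to 48.3%. LDHA took 38% ± 0.36 of lactate dehydrogenase in MYC-ER at 0 h, 76.4% ± 0.36 after 8 h, 69.4% ± 0.92 after 24 h and 47.3% ± 0.41 after 48 h, against 59.5% to 69.3% in parental groups. Per kb, LDHB was thus the more abundant transcript in MYC-ER at 0 and 48 h, and LDHA in the other 6 groups. The order at 48 h rests on the lengths used, 1538 bases for LDHB and 2416 for LDHA. Without division by length, LDHA was the higher there, at 853 CPM against 604 for LDHB. PFKFB2 led its family in MYC-ER at 0 h with 43.6% ± 0.49, and PFKFB3 in the other 7 groups, with 42.2% to 59.3%. In MYC-ER at 48 h this order too rests on length, as PFKFB2 had 55.2 CPM and PFKFB3 42.6 CPM.

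Among the PDK genes, PDK4 held 60.9% ± 1.5 of the family per kb in MYC-ER at 0 h, 4.46% ± 0.15 after 8 h, 34.1% ± 1.4 after 24 h and 50.3% ± 0.82 after 48 h. PDK1 held 3.31% ± 0.075, 41% ± 3.5, 17.8% ± 0.31 and 6.66% ± 0.22 at the same times, and PDK3 led in all 4 parental groups with 43.2% to 46.7%. The PDK1 share rests on a principal transcript of 14193 bases and would be larger with a shorter one. HK1 held 69.5% to 86.4%, ALDOA at least 96.3%, ENO1 at least 99.8% and SLC2A1 at least 97.7% in every group, the last among SLC2A1, SLC2A3 and SLC2A6 alone. The lactate carriers were near balance, with SLC16A3 at 44.6% ± 2 in MYC-ER at 0 h, 56% ± 1.5 after 8 h and 63.4% ± 6.8 in parental cells at 0 h.

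**Figure D4:**
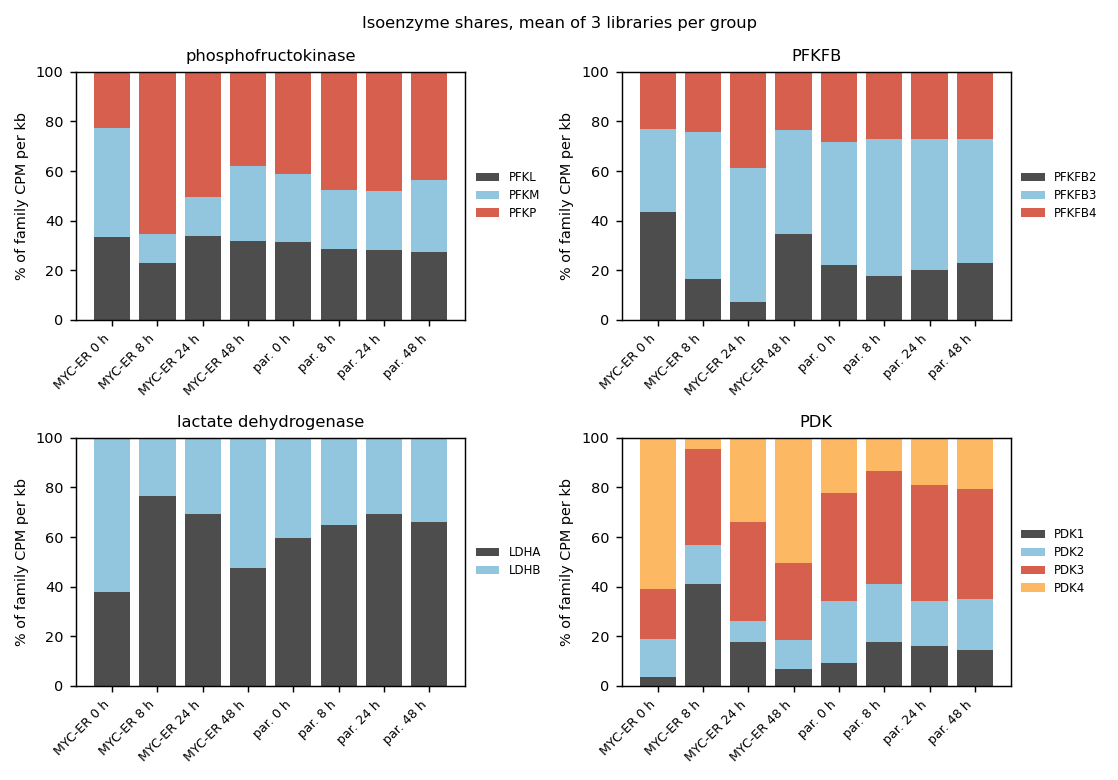
Mean share (percent of the family's CPM per kb, vertical axis) of each isoenzyme in 4 families, for the 8 groups (par. = parental), 3 libraries per bar. In MYC-ER, PFKP goes from 22.5% to 65.1% and LDHA from 38.0% to 76.4% between 0 and 8 h, while PDK4 goes from 60.9% to 4.46%.

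Genes around the members were followed through lists that hold none of them. Of 26 further isoenzymes and carriers, 15 were tested, with 4 higher and 8 lower after 8 h in MYC-ER and 3 and 8 after 24 h. All such counts in the lists stand beside 32.2% higher and 35.4% lower over all genes after 8 h, 30.4% and 31.2% after 24 h, and 23.4% and 20.7% after 48 h. After 8 h the log2 change was -1.78 for ENO3, the muscle enolase (SE 0.12, adjusted p = 7.34e-12), -1.93 for SLC2A5, the fructose carrier (SE 0.11, adjusted p = 1.47e-12), and -5.75 for SLC2A12 (SE 0.22, adjusted p = 7.89e-16). SLC2A12 went from 10.8 ± 0.89 to 0.201 ± 0.0357 CPM and was above its 0 h level after 48 h, at 16.7 ± 1.32 CPM. SLC16A7 (MCT2) fell by 1.02 (SE 0.20, adjusted p = 0.000116). EMB (embigin), a partner of the lactate carriers, rose by 1.68 after 8 h (SE 0.13, adjusted p = 1.7e-10) and was still 1.30 higher after 48 h. Of the 5 tested genes for the rest of the pyruvate dehydrogenase complex and its regulators, 2 rose and 2 fell after 8 h, and PDP2, the other phosphatase, rose by 1.14 (SE 0.083, adjusted p = 5.97e-11).

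Of 10 pentose phosphate genes, 7 were higher and 2 lower after 8 h, 6 and 1 after 24 h, and 5 and 0 after 48 h in MYC-ER, against the same shares of all genes. RPIA and RPE, which interconvert pentose phosphates, rose by 1.70 (SE 0.065, adjusted p = 1.12e-15) and 1.13 (SE 0.079, adjusted p = 3.11e-11) after 8 h. Against the parental line at 0 h, 8 of the 10 were lower in MYC-ER (32.7% of all genes). Of 14 tested genes of gluconeogenesis and glycogen, 9 were higher and 3 lower after 8 h. The glycogen phosphorylases PYGL and PYGB rose by 2.65 (SE 0.065, adjusted p = 7.14e-19) and 2.05 (SE 0.088, adjusted p = 7.42e-15). PYGL stayed high, at 32.9 ± 1.56, 206 ± 10.9, 229.6 ± 10.2 and 126 ± 1.75 CPM, whereas PYGB went from 1398 ± 36.4 CPM after 8 h to 504 ± 22.3 after 24 h. PC, pyruvate carboxylase, had a log2 change of -1.20 after 24 h (SE 0.081, adjusted p = 2.07e-11), and UGP2, which makes UDP-glucose, of -1.24 (SE 0.046, adjusted p = 6.61e-16).

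Among 14 regulators, 6 rose and 6 fell after 8 h, and 1 rose and 11 fell after 24 h, where the background was 32.2% and 35.4%, and 30.4% and 31.2%. TXNIP and ARRDC4, arrestin-family proteins that restrain glucose uptake and report on glucose through the MondoA factor, both fell. TXNIP went from 1836 ± 31.7 CPM at 0 h to 661 ± 16 after 8 h, 682 ± 5.9 after 24 h and 857 ± 2.68 after 48 h (log2 change after 8 h -1.48, SE 0.051, adjusted p = 1.95e-16), and ARRDC4 fell by 1.38 after 8 h (SE 0.083, adjusted p = 2.23e-12) and fell by 0.26 after 24 h. In parental cells TXNIP stood at 428 to 502 CPM. MYC counts, which may include reads from the fusion if it is of human origin, measured 387 ± 8.02, 795 ± 1.77, 321 ± 8.84 and 248 ± 4.72 CPM in MYC-ER. HIF1A changed by 0.31 after 8 h (SE 0.11, adjusted p = 0.0147) and did not pass the test after 24 h (0.13) or 48 h (-0.081).

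Of 16 HIF targets outside glycolysis, 11 were higher and 1 lower after 8 h in MYC-ER, 14 and 2 after 24 h, and 8 and 5 after 48 h, with medians of 1.26, 1.28 and 0.34. In parental cells 12 were higher and none lower after 8 h, 12 and none after 24 h, and 12 and 1 after 48 h, against the parental shares of 15% and 16%, 21.2% and 21.7%, and 20.4% and 20.1% of all genes, with medians of 0.43, 0.49 and 0.51. CA9, a carbonic anhydrase that serves as a marker of hypoxia, measured 0.19 ± 0.0525 CPM in MYC-ER at 0 h, 15.2 ± 2.18 after 8 h, 212 ± 11.7 after 24 h and 34.6 ± 2.05 after 48 h, and at most 2.11 CPM on average in a parental group. Its log2 change after 24 h was 10.11 (SE 0.54, adjusted p = 3.62e-13). EGLN3, a prolyl hydroxylase that acts on HIF, rose by 6.46 (SE 0.39, adjusted p = 1.81e-12) after 8 h, and NDRG1 by 2.79 (SE 0.17, adjusted p = 4.27e-12). Oxygen was not measured, and the part of hypoxia in the members' changes was not tested.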

How the data were processed

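RNA from 24 cultures was sequenced from stranded poly(A) libraries, 3 libraries to a lane, per the labels' protocols. Reads were trimmed with Trimmomatic 0.39, aligned with STAR to GRCh38 and quantified with StringTie 2.1.3b, per the submitters' processing notes; the annotation, the use of strand and the handling of reads that fit several places are not given in the sources used here. The deposited file holds whole-number counts per gene, and StringTie may derive such counts from coverage. There was no spike-in, so levels are relative within a library.

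Counts were tested with edgeR 4.0.16 (R 4.3.3; TMM scaling, filterByExpr, 1 mean per group over all 24 libraries, 16 residual degrees of freedom, quasi-likelihood F test, Benjamini-Hochberg over 22158 genes, threshold 0.05). DESeq2 1.42.0 and other scalings, filters and designs were alternatives. Gene positions and transcript lengths came from GENCODE and promoters from RefSeq. Isoenzyme ratios had 0.5 added to each count. The script was tested on simulated counts. A count of 3 corresponds to 0.0219 CPM in the smallest library, and counting error is the only error such a floor covers. All members may be named, with every library's value for the largest rise and fall in each contrast; genes of other lists were named if called with a log2 change of at least 1 and at least 10 CPM in the highest group, apart from TXNIP, ARRDC4, HIF1A, MYC and CA9. A named gene may be given at a time when it did not reach that size. The members and lists were chosen with earlier results of these data known.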

Additional observations from a re-analysis of the deposited data

Results flagged for a closer look

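The change after 4-OHT differed between the lines, by edgeR's quasi-likelihood test of the line by time interaction, for 31 of the 34 members after 8 h, 30 after 24 h and 23 after 48 h. These counts stand beside 55.2%, 54.5% and 45% of all genes.

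Some members were called in opposite directions in the 2 lines, 7 after 8 h, 5 after 24 h and 6 after 48 h of the 34. Over all genes the share so called was 6.42% after 8 h, 12.8% after 24 h and 10.5% after 48 h. The differences below are MYC-ER minus parental on the log2 scale. GPI differed by 1.48 after 8 h, 1.63 after 24 h and 0.58 after 48 h, with MYC-ER changes of 1.26, 1.44 and 0.26 and parental changes of -0.22, -0.20 and -0.32. LDHB differed by 0.47, 0.85 and 0.48 at the same times, and was lower in parental cells at each (-0.21, -0.34 and -0.27). SLC2A3 went the other way, by -2.36, -4.04 and -4.48, at levels of at most 4.34 CPM. GAPDH differed by 0.78 after 8 h and 1.41 after 24 h, PKM by 1.59 after 8 h and 0.55 after 48 h. At 8 h alone PFKL (0.52) and PDHB (1.02) were opposed, after 24 h PDP1 (-1.80), and after 48 h PFKFB2 (-0.76) and ALDOA (0.74). With the GC and length trends removed the parental changes of GAPDH after 24 h (0.082), PFKL after 8 h (0.065), PFKFB2 after 48 h (-0.032) and ALDOA after 48 h (0.028) changed sign, and those of GAPDH after 8 h (-0.097, adjusted p = 0.35) and of PKM after 8 h (-0.098, adjusted p = 0.225) and 48 h (-0.063, adjusted p = 0.446) were no longer called. The parental side of these differences rests on 0 h libraries that stood apart from each other.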

How the results depend on the processing

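Over the alternatives, 6794 of 7242 member values kept their side of the threshold, 288 lost a call and 142 gained one. The other 18 changed sign with a call in the main fit or the alternative, and are given below. A sign change with a call in neither fit was counted as kept. Fitted on their own groups alone, the parental calls numbered 6 at 8 h, 6 at 24 h and 5 at 48 h, against 15, 16 and 18; the cause was not tested. With each library left out in turn, the calls numbered 30 to 31 (MYC-ER 8 h), 31 to 32 (24 h), 22 to 24 (48 h), 22 to 26 (24 against 8 h), 31 (48 against 24 h), 10 to 20, 13 to 23 and 12 to 22 (parental 8, 24 and 48 h), 28 to 33 and 24 to 27 (lines at 0 and 48 h), and 30 to 31, 28 to 30 and 20 to 27 (interactions at 8, 24 and 48 h). With library size alone PDHB from 8 to 24 h turned to 0.21. With the GC and length trends removed, these log2 values changed sign (the cause was not tested): in parental cells PFKL to 0.065, 0.18 and 0.091 at 8, 24 and 48 h, PFKFB2 to -0.25 and -0.032 and ALDOA to 0.22 and 0.028 at 24 and 48 h, GAPDH to 0.082 and PGK1 to -0.25 at 24 h, PDK4 to -0.35 at 48 h; between lines at 0 h PDK1 to -0.21; in the 48 h interaction PFKL to -0.25, TPI1 to -0.11, PGK1 to 0.38, PGAM1 to -0.033, SLC16A1 to 0.24 and PDK1 to 0.48. Library size alone moved the median of all genes by 0.116 and 0.162 for MYC-ER after 24 and 48 h, 0.206 between 8 and 24 h, 0.142 between lines at 48 h, -0.119 and 0.103 in the interactions at 8 and 48 h, and upper quartile scaling by -0.139 for MYC-ER at 8 h, 0.104 between 8 and 24 h and 0.141 between lines at 48 h. Replicate numbers did not pair libraries, with correlations of deviations from -0.0776 to 0.0943. With the number as a replicate block, 31 members were called between lines at 0 h and 26 at 48 h (32 and 27 without it), 12 parental ratios passed against 11, and the other 11 counts of member calls were the same. Depth, at 136860029 counts or more, limits mainly SLC2A3, SLC2A6 and ENO2.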
